A study of Mus musculus with 12 samples.

Results

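RNA from C3H/10T1/2 cells that carried a BMP2 plasmid with miR-590 was compared with RNA from cells that carried the same kind of plasmid with miR-148b. The comparison takes the 3 libraries labelled pH_BMP2ADV590 and the 3 labelled pH_BMP2ADV148b, 6 of the 12 libraries of the series, and every gene in their count files. C3H/10T1/2 is a mouse embryonic line of fibroblast shape. It was transfected transiently, without a virus, with 0.5 µg of plasmid DNA per cm2, the medium was changed after 4 h, and RNA was taken 3 days later. Both groups received a hybrid plasmid named for BMP2 and 1 miRNA, so neither is an untreated control. The series also holds 3 libraries of the plasmid named for BMP2 alone (pH_BMP2ADV) and 3 of a miR-20a hybrid (pH_BMP2ADV20a), which share the fit and are given as reference levels. Untransfected cells were not analysed here. Nothing in the labels ties the 3 libraries of a group to separate transfections, so the p-values measure the spread between these libraries, which may be technical. In bulk RNA, fewer expressing cells and less RNA per cell cannot be told apart.

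Bone morphogenetic protein 2 (BMP2) is a secreted growth factor that binds paired type I and type II receptors, sets off SMAD phosphorylation and can turn mesenchymal cells towards cartilage and bone. A microRNA (miRNA) is a short RNA that guides a silencing complex to messenger RNAs pairing with its seed, the bases near its 5′ end, and lowers their stability and translation. Cells that sense nucleic acids or viruses make interferon, which acts through transcription factors such as the IRF family to switch on a broad set of antiviral, antigen presentation and chemokine genes.

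The miRNA sequences below are RefSeq entries on GRCm38.p6 and show what the labels of the 2 groups refer to. Each is written 5′ to 3′ with its seed, bases 2 to 8, in capitals. The 3p arm of miR-148b shares its seed with miR-148a and miR-152, so a site for one is a site for all 3 of these mature miRNAs. Human and mouse miR-590-5p carry the seed of miR-21, and the mature miR-21a-5p is shown for that seed. Which arm of miR-590 the plasmid yields was not stated in the labels.
mmu-miR-148b-3p: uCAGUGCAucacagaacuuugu
mmu-miR-148a-3p: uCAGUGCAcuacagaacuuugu
mmu-miR-152-3p: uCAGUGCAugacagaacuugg
mmu-miR-148b-5p: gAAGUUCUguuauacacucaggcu
mmu-miR-21a-5p: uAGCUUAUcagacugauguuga

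The label of the miR-148b hybrid could be checked against the reads. Mir148b (chr15:103285125-103285221, plus strand, inside Copz1) had 0 counts in all 3 miR-590 hybrid libraries and 211, 215 and 204 in the miR-148b hybrid libraries. Taking 0 as allowing up to 3 counts over the group, the read level at this locus was at least 264-fold higher in the miR-148b hybrid. That limit covers counting error only. Copz1, the host gene, which encodes a coatomer subunit, was at 243, 317 and 289 CPM (counts per 1000000 counts, after scaling between libraries) in the miR-590 hybrid and at 228, 231 and 233 CPM in the miR-148b hybrid. It was thus slightly higher in the group that lacked Mir148b reads, with a log2 fold change of 0.29 and an adjusted p of 0.05, and the call was lost in 16 of 19 alternative settings. Mir590 was not among the genes counted, and the mature form of neither miRNA was measured in these 3' mRNA libraries. Eif4h, a translation initiation factor gene whose intron holds miR-590, was at 243 to 253 CPM against 237 to 267 CPM, with a log2 fold change of -0.02 (SE 0.073).

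Mouse Bmp2 was not called between the hybrids, and whether its reads include those of the plasmid's BMP2 was not tested. It was at 4.52, 5.82 and 4.81 CPM in the miR-590 hybrid and at 3.38, 8.27 and 4.42 CPM in the miR-148b hybrid, so the groups overlapped. The log2 fold change was -0.09, with a 95% interval from -0.78 to 0.61 (adjusted p = 0.937). At this level the interval leaves room for a difference of either sign. In BMP2ADV it was at 1.30 ± 0.527 CPM, with log2 fold changes over it of 1.91 (adjusted p = 0.0021) for the miR-590 hybrid and 2.00 (adjusted p = 0.0326) for the miR-148b hybrid, which share those libraries.

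Every fold change below is the miR-590 hybrid minus the miR-148b hybrid on the log2 scale, so positive values mean higher with miR-590. Of 13229 genes tested, 586 (4.43%) passed an adjusted p of 0.05 in edgeR's quasi-likelihood test. Of these, 325 genes (2.46%) were higher and 261 (1.97%) lower in the miR-590 hybrid. With library totals and no further scaling, the split was 219 higher and 326 lower, while all 13229 genes moved by a median of only -0.03. Among called genes the median size of the log2 fold change was 0.52 for those higher and 0.58 for those lower, and 35 and 42 genes passed 2-fold. The 3 libraries of each group did not overlap for 318 of the 325 higher genes and 259 of the 261 lower genes, beside 2757 (20.8%) of all tested genes. The 12 largest rises and 12 largest falls named below had to be without overlap, so their separation was fixed by that rule.

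**Figure D1:**
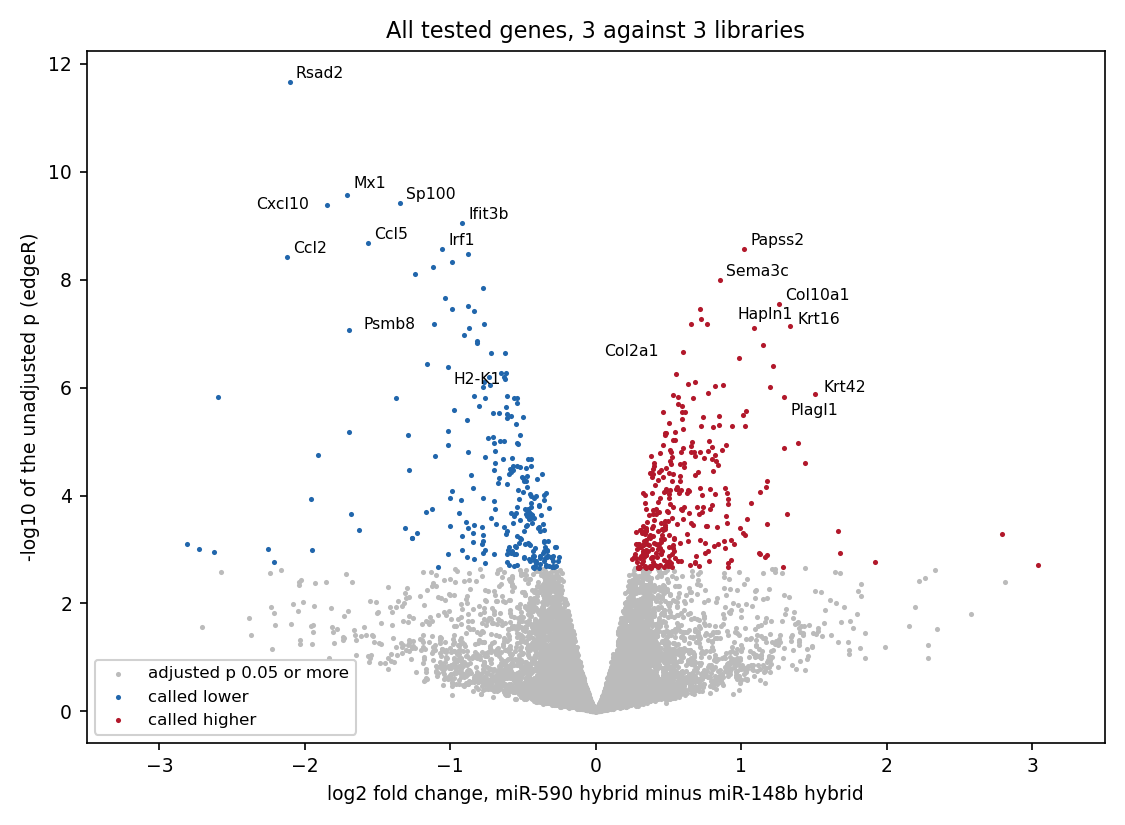
Each point is 1 of the tested genes, with the log2 fold change of the miR-590 hybrid minus the miR-148b hybrid on the x axis and -log10 of the unadjusted p on the y axis. Labels mark genes such as Rsad2, Mx1, Cxcl10 and Sp100 on the lower side and Papss2, Sema3c and Col10a1 on the higher side, and 2 genes, Mir148b among them, lie outside the axis.

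The groups differed in depth, and the counts moved with single libraries. The miR-590 hybrid libraries held 10056741 to 14002702 gene counts and the miR-148b hybrid libraries 9236431 to 9750598, so depth did not overlap between the groups, and its part in the result was not tested. The share of counts in Gm42418, a gene model over ribosomal RNA sequence, was 4.99% to 8.99% against 4.07% to 7.41%, and that in mitochondrial transcripts 1.90% to 2.32% against 1.68% to 1.94%. On the first principal component of the 6 libraries (31.7% of the variance), the miR-148b hybrid libraries lay at -33.2, -22.8 and -5.43 and the miR-590 hybrid libraries at 18.03 to 24.7. Without replicate 1 of the miR-148b hybrid, the farthest of them, 120 genes were higher and 121 lower. Without replicate 2 of that group the counts were 176 and 177, without its replicate 3 353 and 303, and without replicate 3 of the miR-590 hybrid 216 and 167. A core of 213 genes was called in the fit and in all 19 alternatives.

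The BMP2 plasmid libraries, which the contrast does not use, give each called gene a reference level. Of the 325 genes higher in the miR-590 hybrid, 175 had a BMP2ADV mean below both hybrids and another 122 had one between the hybrids and nearer to miR-148b. Only 28 had one nearer to miR-590. Of the 261 lower genes, 139 had a BMP2ADV mean between the hybrids and nearer to miR-148b, 73 one above both, 47 one nearer to miR-590 and 2 one below both. For 209 of the 325 higher genes the miR-20a hybrid mean lay between the 2 hybrids and nearer to miR-148b. It was nearer to miR-590 for 66, below both for 46 and above both for 4. Of the lower genes, 120 had a miR-20a mean between and nearer to miR-590, and 102 one nearer to miR-148b. Another 14 had one below both and 25 one above both.

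Antiviral effector genes were lower with miR-590. Of 33 tested members of the interferon-stimulated antiviral list, 27 were lower and 0 higher, with a median log2 fold change of -0.72 beside 0.00 for all tested genes. Rsad2, which encodes viperin, an enzyme that makes a chain-terminating nucleotide, was at 22.1, 24.8 and 18.3 CPM in the miR-590 hybrid. In the miR-148b hybrid it was at 117, 97.8 and 66.4 CPM. Every miR-148b library thus lay above every miR-590 library, a condition of the rule for the largest falls, and the log2 fold change was -2.10 (SE 0.159, adjusted p = 1.44e-08).

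Mx1, a dynamin-like GTPase that blocks virus replication, was at 12.4, 19.5 and 16.0 CPM with miR-590 and at 62.5, 53.8 and 39.7 CPM with miR-148b (log2 fold change -1.71, SE 0.164, adjusted p = 1.07e-06). Its relative Mx2 was at 62.9 ± 10.7 against 125 ± 20.3 CPM (mean ± SD, n = 3). Cxcl10, a chemokine that draws T cells, was tight at 24.8, 23.03 and 24.1 CPM with miR-590 and spread over 119, 79.5 and 60.3 CPM with miR-148b. For all 3 genes the groups were apart, which the rule for the largest falls required of Mx1 and Cxcl10. The SD in CPM was larger with miR-148b, where the mean was higher too.

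Other members of the list were lower as well. Ifit3, which binds viral RNA together with other IFIT proteins, was at 523 ± 87.2 against 1039 ± 109 CPM (log2 fold change -0.99), and Isg15, a ubiquitin-like modifier, at 673 ± 72.8 against 998 ± 95.5 CPM (-0.57). Oas1g, outside the list but of the oligoadenylate synthetase family that activates RNase L, was at 8.12, 2.51 and 5.71 CPM against 14.7, 10.6 and 15.8 CPM. Its call was lost without replicate 1 or 3 of the miR-148b hybrid or replicate 3 of the miR-590 hybrid (adjusted p up to 0.0819). Ifit3 and Ifit3b, and Oas1g and Oas1a, are near-identical genes. Reads aligned to more than 1 place (41.5% to 44.5% of records over the 12 libraries) were counted for no gene. The level of each of these genes alone is thus uncertain.

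Sensors and transcription factors of the pathway were lower in part. Of 20 tested members, 9 were lower and 0 higher, with a median of -0.38. Irf1, a transcription factor of the interferon response, was at 29.4, 26.7 and 28.5 CPM with miR-590 and at 64.1, 60.9 and 51.3 CPM with miR-148b (log2 fold change -1.06, SE 0.115, adjusted p = 4.04e-06). Irf7, which drives interferon alpha genes, was at 81.5, 113 and 89.2 CPM against 173, 155 and 143 CPM (-0.73). The groups did not overlap for either factor.

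Zbp1, a sensor of Z-form nucleic acids that can trigger cell death, was at 9.84 ± 2.41 against 25.2 ± 6.02 CPM, a log2 fold change of -1.37. Tlr3, the endosomal receptor for double-stranded RNA, was at 34.1 ± 3.70 against 52.99 ± 1.77 CPM (-0.63), and Ifih1, which encodes the cytosolic sensor MDA5, gave -0.70. Stat2, which carries the receptor's signal to the nucleus, gave -0.42, and its call was lost without replicate 1 of the miR-148b hybrid. The receptor genes Ifnar1 and Ifnar2 gave 0.12 and -0.17 (adjusted p = 0.845 and 0.405). The ligand Ifnb1 was scarce, at 1.76, 0.45 and 0.30 CPM against 3.38, 1.91 and 1.05 CPM, so the groups overlapped (adjusted p = 0.293).

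Interferon-inducible GTPases and p200 proteins, which attack intracellular vacuoles or bind DNA, gave 13 of 17 tested members lower and 1 higher, with a median of -0.76. Ifi47, an immunity-related GTPase, was at 44.8, 46.8 and 43.9 CPM with miR-590 and at 82.9, 80.7 and 85.2 CPM with miR-148b (log2 fold change -0.88, SE 0.0959, adjusted p = 4.38e-06). Both groups were tight, and they did not overlap. Irgm2, a regulator of these GTPases, gave -1.16, the guanylate-binding protein gene Gbp5 -1.91 and the p200 gene Ifi207 -1.29. Gbp5 missed the rule for the largest falls, which asks for at least 10 CPM in 1 group and no overlap. The member that was higher, Ifi27, encodes a small mitochondrial membrane protein. It was at 160, 176 and 157 CPM with miR-590 and at 87.2, 102 and 117 CPM with miR-148b, a log2 fold change of 0.69 (adjusted p = 0.000208). Without replicate 1 of the miR-148b hybrid, 8 of the 17 were lower, and Ifi27 kept its call.

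Genes of MHC class I and the immunoproteasome were lower in 8 of 17 tested members and higher in 0, with a median of -0.53. Psmb8, a catalytic subunit of the immunoproteasome, was at 22.1, 22.6 and 25.9 CPM against 55.4, 51.7 and 44.9 CPM (log2 fold change -1.11, SE 0.144, adjusted p = 3.3e-05). H2-K1, which encodes a heavy chain, was at 74.5, 80.6 and 80.6 CPM with miR-590 and at 179.1, 147.96 and 150.1 CPM with miR-148b, a log2 fold change of -1.02. Tap1, which pumps peptides into the endoplasmic reticulum, gave -0.50. The light chain gene B2m was at 2187 ± 63.0 against 2435 ± 39.1 CPM (-0.15, adjusted p = 0.294).

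**Figure D2:**
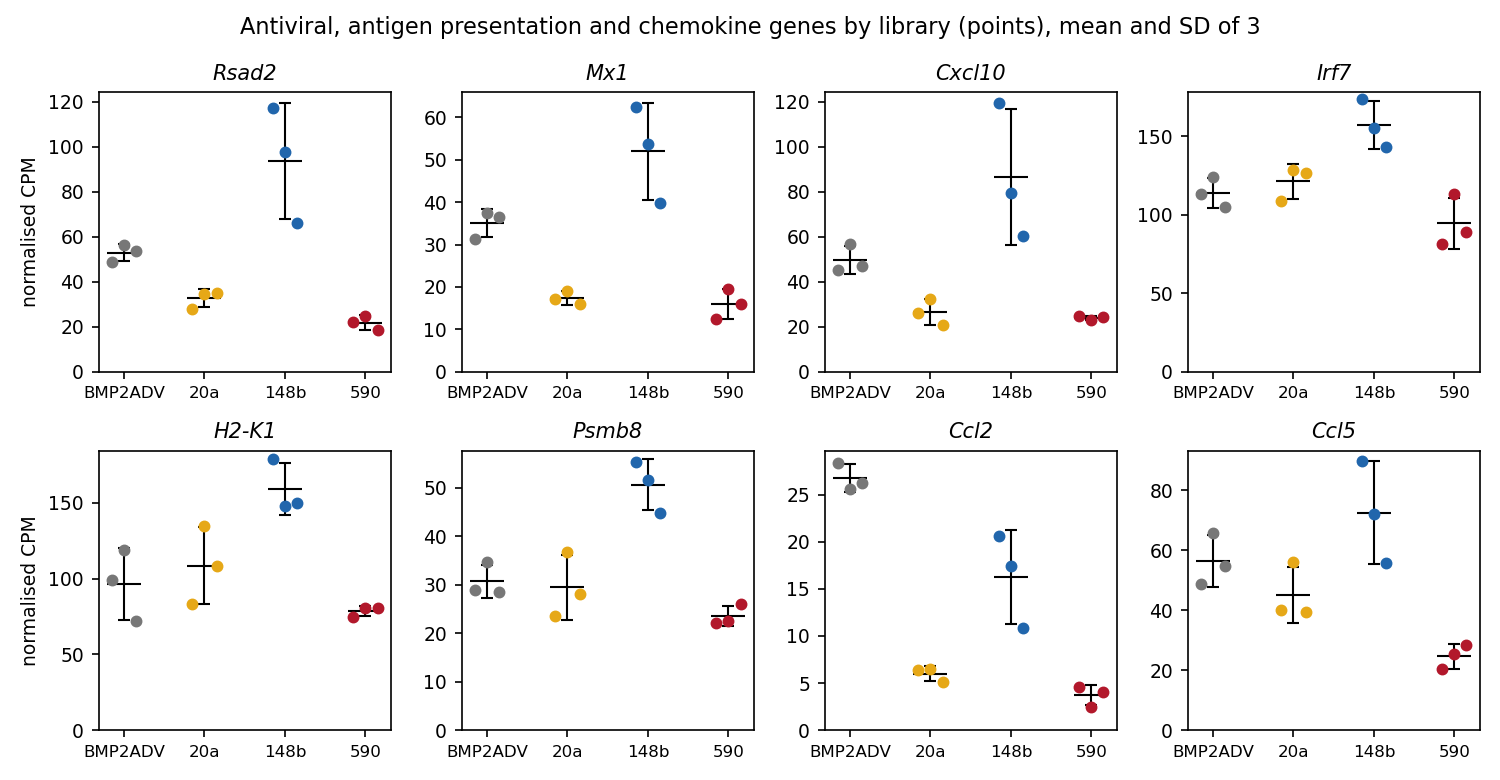
Normalised CPM (y axis) of 8 genes in each library (points) of the 4 groups, with the mean (long bar) and the SD of 3 libraries (whiskers). The miR-590 hybrid points lie below all miR-148b hybrid points in each panel, and the BMP2ADV points of Rsad2 and Mx1 lie between them.

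The 4 interferon lists had a reference on each side. The medians of the miR-590 hybrid minus BMP2ADV were -0.43, -0.23, -0.37 and -0.19 in the order antiviral, sensors and factors, GTPases and p200, and MHC class I. Those of the miR-148b hybrid minus BMP2ADV were 0.25, 0.14, 0.28 and 0.36. Both sets of differences share the BMP2ADV libraries. For Rsad2 the BMP2ADV mean of 53.02 ± 3.89 CPM lay between the hybrids, and for Irf1 that of 61.8 ± 7.32 CPM lay above both. In the miR-20a hybrid Mx1 and Cxcl10 were at 17.4 ± 1.55 and 26.4 ± 5.73 CPM, close to miR-590. H2-K1, at 109 ± 25.5 CPM there, lay between the 2 compared hybrids.

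Chemokines and cytokines were lower in 7 of 16 tested members and higher in 0, with a median of -0.61. Ccl2, which draws monocytes, was at 4.59, 2.51 and 4.00 CPM in the miR-590 hybrid and at 20.6, 17.4 and 10.8 CPM in the miR-148b hybrid (log2 fold change -2.12, SE 0.234, adjusted p = 4.57e-06). Its neighbour Ccl7 gave -1.70 and Ccl5, which draws T cells, -1.57. Csf1, the growth factor of macrophages, was at 78.1, 49.8 and 71.5 CPM against 111, 110 and 89.7 CPM (-0.64). None of these 4 genes overlapped between the groups, which the rule for the largest falls required of Ccl2, Ccl7 and Ccl5. Il6, an inflammatory cytokine gene, was at 1.06 against 1.71 CPM (adjusted p = 0.695). Here the reference lay elsewhere: the median was -1.22 for the miR-590 hybrid and -0.37 for the miR-148b hybrid against BMP2ADV, and Ccl2 was at 26.8 ± 1.46 CPM in BMP2ADV. In the miR-20a hybrid Ccl2 was at 5.98 ± 0.799 CPM and Ccl5 at 45.1 ± 9.46 CPM.

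NF-kB genes gave 3 lower and 0 higher of 15 tested, with a median of -0.20. Relb, a subunit of the non-canonical pathway, was at 6.99, 5.02 and 4.91 CPM against 13.5, 10.9 and 9.36 CPM (log2 fold change -0.99). Rela gave -0.38 and Tnfaip3, a feedback inhibitor, -1.26. None of the 3 calls was kept without replicate 1 of the miR-148b hybrid, and 1 was without its replicate 2 or without replicate 3 of the miR-590 hybrid.

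Markers of other cells were summed by library. The summed level of 7 macrophage markers, in CPM by library total, was 5.56 to 7.56 with miR-590 and 8.77 to 10.9 with miR-148b, without overlap. Among them Adgre1, a defining marker, was at 0 in all 6 libraries, and 0 of the 4 tested passed the test. Cd14, at 2.95 to 4.57 against 4.87 to 5.81 CPM, held the largest part of the sum. Csf1r, at 0.69 to 1.43 against 1.61 to 2.15 CPM, was also lower without overlap, while Cd68 and Lyz2 overlapped between the groups. The sum of 6 endothelial markers was 6.36 to 7.76 against 7.38 to 10.0, with Cdh5 at 0, so the groups overlapped. The sums of 7 skeletal muscle markers (10.8 to 11.8 against 9.74 to 12.1) and 6 neural markers (75.5 to 85.4 against 83.6 to 90.0) overlapped too. The part of other cell types in the result was not tested. All 10 mesenchymal fibroblast markers were tested, and their sum was 18754 to 21814 against 18359 to 20160 CPM. Vim and Fn1 were the 2 called, both higher with miR-590, and their calls were lost in 1 and 6 of 19 settings. Thy1, at 59.3 to 68.8 against 51.9 to 58.8 CPM, was also higher without overlap. Pdgfrb, at 123 to 135 against 147 to 164 CPM, and Prrx1, at 481 to 506 against 508 to 536 CPM, were lower without overlap. Thy1, Pdgfrb and Prrx1 were not called.

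An interferon response motif was counted in the promoters of called genes. A motif of GAAA, any 2 bases and GAAA again, the core of the element that IRF complexes bind, was searched on both strands from 250 bases before to 50 after the gene start in RefSeq entries on GRCm38.p6. It was present in 40 of 192 genes lower in the miR-590 hybrid (20.8%), in 9 of 237 higher genes (3.797%) and in 363 of 9569 tested genes with an entry (3.79%). Of all 32851 promoter entries, 3.44% held it. By list, it was present in 10 of 18 lower and 11 of 24 tested antiviral genes, in 3 of 6 lower and 4 of 17 tested sensors and factors, and in 9 of 10 lower and 12 of 13 tested GTPase and p200 genes. For MHC class I genes it was present in 1 of 8 lower and 5 of 15 tested, so there it was more common among members that were not called. It was present in 0 of 10 tested genes of the chemokine and cytokine list. The chemokine gene Cxcl10, which holds it, was counted in the antiviral list. A match describes letters and is not a measured binding site.

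Parts of 6 such promoters are shown because their genes were lower and hold the motif, from Rsad2 and Cxcl10 to Phf11b, a PHD finger gene induced by interferon. Each runs 5′ to 3′ on the gene's own strand with the motif in capitals, read as GAAA with its 2-base spacer or as TTTC where it lies on the other strand. The windows, all on GRCm38.p6, are chr12:26456538-26456597 on the minus strand for Rsad2, chr5:92349068-92349127 minus for Cxcl10, chr1:173741816-173741875 minus for Ifi207, chr14:59341346-59341405 minus for Phf11b, chr11:58214888-58214947 plus for Irgm2 and chr19:34607744-34607837 plus for Ifit3b. The motif starts 120 bases before the gene start in Rsad2, 213 in Cxcl10, 41 in Ifi207, 50 in Phf11b and 64 in Irgm2. Ifit3b has 2, at 188 and 154 bases before it.
Rsad2: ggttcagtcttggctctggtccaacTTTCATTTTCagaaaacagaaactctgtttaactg
Cxcl10: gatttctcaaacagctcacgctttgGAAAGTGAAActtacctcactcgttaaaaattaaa
Ifi207: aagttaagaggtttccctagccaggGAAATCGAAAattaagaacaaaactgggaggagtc
Phf11b: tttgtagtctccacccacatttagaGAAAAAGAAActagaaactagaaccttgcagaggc
Irgm2: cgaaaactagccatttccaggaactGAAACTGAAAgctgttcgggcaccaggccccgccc
Ifit3b: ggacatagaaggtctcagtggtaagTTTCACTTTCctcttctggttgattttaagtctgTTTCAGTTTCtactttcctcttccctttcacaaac

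Cartilage genes were higher with miR-590. Of 14 tested chondrocyte matrix genes and markers, 7 were higher and 0 lower, and all 14 had a positive log2 fold change, with a median of 0.91. The remaining 8 of the 22 listed were too scarce to test. Col10a1, the collagen of hypertrophic cartilage, was at 501, 532 and 446 CPM in the miR-590 hybrid and at 174, 190 and 254 CPM in the miR-148b hybrid. All 3 miR-590 libraries lay above all 3 others, a condition of the rule for the largest rises, and the log2 fold change was 1.26 (SE 0.155, adjusted p = 2.1e-05).

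Col2a1, the main collagen of cartilage, was at 1757, 1845 and 1754 CPM with miR-590 and at 1009, 1221 and 1306 CPM with miR-148b (log2 fold change 0.60, SE 0.0832, adjusted p = 7.99e-05). Hapln1, which links aggrecan to hyaluronan, was at 228, 210 and 213 CPM against 83.8, 100.5 and 121 CPM, a log2 fold change of 1.09. Both were apart between the groups, and in both the lowest library was replicate 1 of the miR-148b hybrid. Acan, which encodes aggrecan, was at 85.4 ± 18.2 against 41.6 ± 14.7 CPM (1.04), and Col9a1 at 70.2 ± 3.78 against 37.8 ± 13.1 CPM (0.89). The calls of Acan and Col9a1 were lost without replicate 1 or 2 of the miR-148b hybrid and in DESeq2. Without replicate 1 of that group 5 of the 14 were higher. With no filter on low counts, where scarce members of the list can be tested too, 11 were.

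The factors that set the chondrocyte programme were higher in 3 of 8 tested, with a median of 0.26. Only 5 of the 8 had a positive log2 fold change, and the lowest was -0.25. For 2 members all miR-590 libraries lay below all miR-148b libraries, beside 1375 of the 13229 genes tested, and 0 were called lower. Sox9, the master regulator of the programme, was at 2998, 3129 and 2692 CPM against 1679, 2186 and 2343 CPM (log2 fold change 0.51, SE 0.1, adjusted p = 0.0028). Sox6, its partner, was at 41.6, 45.4 and 39.2 CPM against 20.9, 20.4 and 30.3 CPM (0.82), and Mef2c, a driver of hypertrophy, gave 0.53. The groups did not overlap for any of the 3. Sox5, the second partner, gave 0.70 (adjusted p = 0.0943), and Runx2, shared by hypertrophic chondrocytes and osteoblasts, was at 42.3 against 42.1 CPM.

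**Figure D3:**
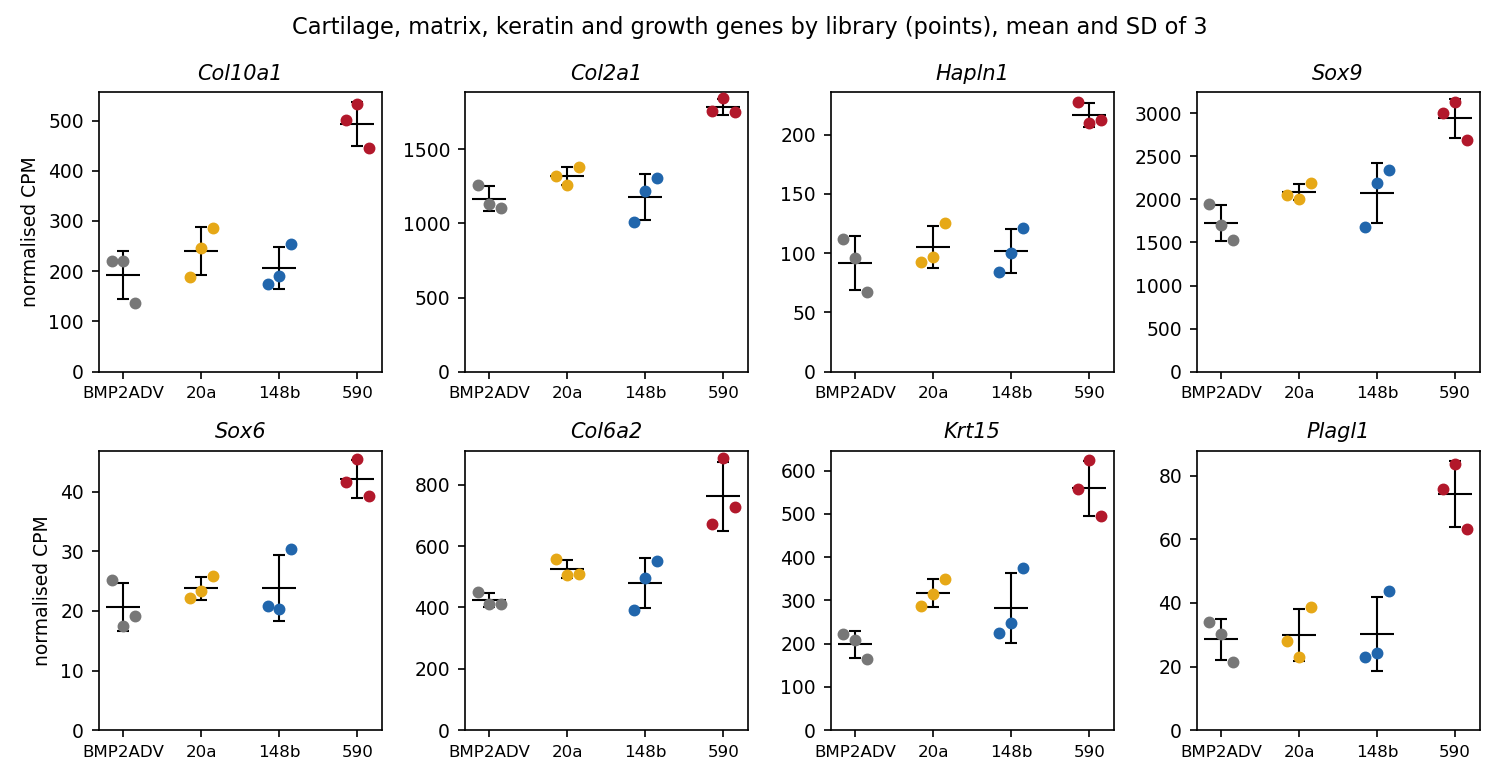
Normalised CPM (y axis) of 8 genes in each library (points) of the 4 groups, with the mean (long bar) and the SD of 3 libraries (whiskers). The miR-590 hybrid points lie above all points of the other groups in every panel, with Col10a1 at 446 to 532 CPM against at most 254 CPM in the miR-148b hybrid.

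Against BMP2ADV, the median of the chondrocyte matrix list was 0.84 in the miR-590 hybrid and -0.01 in the miR-148b hybrid, with the same BMP2ADV libraries in both differences. Col10a1 was at 192 ± 48.5 CPM in BMP2ADV, beside 206 ± 42.2 CPM with miR-148b. Col2a1 was at 1167 ± 83.0 CPM, beside 1179 ± 153 CPM.

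The osteoblast list gave 0 calls among 14 tested members in edgeR, with a median of 0.17. At an unadjusted p under 0.05 there were 2 members, and limma-voom and DESeq2 also called 0. Sp7, the osteoblast transcription factor, was at 2.64 ± 0.581 against 2.09 ± 0.484 CPM, and Col1a1, the main collagen of bone, at 4383 ± 374 against 4665 ± 484 CPM. Leaving out replicate 2 of the miR-590 hybrid gave 1 call. Alpl and Bglap were too scarce to be tested.

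Targets of BMP signalling were higher in 4 of 18 tested and lower in 0, with a median of 0.25. Hey1, a repressor induced by BMP and Notch, was at 170, 157 and 161 CPM with miR-590 and at 99.7, 110 and 126 CPM with miR-148b (log2 fold change 0.53, SE 0.0951, adjusted p = 0.00114). Tsc22d1, a leucine zipper factor, gave 0.52, Bambi, a decoy receptor, 0.59, and Grem1, a secreted BMP antagonist, 0.41. The call of Bambi was lost without replicate 2 of the miR-148b hybrid or replicate 1 of the miR-590 hybrid, and that of Grem1 in 6 settings, so 2 of the 18 were called without replicate 2 of the miR-148b hybrid. The immediate SMAD targets Id1, Id2 and Id3 gave 0.09, 0.13 and -0.01 (adjusted p from 0.458 to 0.973). Smad7, an inhibitor of the pathway, was at 56.6 ± 6.20 against 55.0 ± 3.89 CPM, and Nog, which encodes the antagonist noggin, at 4.28 ± 1.02 against 2.41 ± 1.56 CPM (adjusted p = 0.39).

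Among 15 tested BMP ligands, receptors and SMADs, 1 was lower and 1 higher. Bmp4, a ligand, was at 163, 121 and 114 CPM against 190, 175 and 185 CPM (log2 fold change -0.46, adjusted p = 0.00908). Bmpr2, the type II receptor, was at 130, 135 and 129 CPM against 100, 95.8 and 113 CPM (0.35, adjusted p = 0.0164). Neither overlapped between the groups, yet neither call was kept without replicate 1 of the miR-148b hybrid. Fgfr3, a receptor of growth plate chondrocytes, was at 237 ± 17.7 against 138 ± 43.1 CPM (0.79), and its call was also lost without that library.

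Other matrix genes were mostly higher where they passed. Of 23 tested collagens and their enzymes, 7 were higher and 0 lower, with a median of 0.22. Col6a2 and Col6a1, chains of the beaded microfibrils around cells, were at 762 ± 112 against 480 ± 80.8 CPM and at 868 ± 142 against 569 ± 108 CPM, with log2 fold changes of 0.67 and 0.61. Col8a1, a short-chain collagen, was at 297, 352 and 313 CPM against 208, 231 and 219 CPM (0.55, adjusted p = 0.000166). Col1a2 gave -0.03. Without replicate 1 or 2 of the miR-148b hybrid 3 of the 23 were higher, and without replicate 3 of the miR-590 hybrid, or with library totals alone, 4 were.

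Of 23 tested proteoglycan and elastic fibre genes, 9 were higher and 1 lower. Fmod, a small proteoglycan that steers collagen fibre growth, was at 78.4, 91.9 and 89.4 CPM against 44.1, 47.5 and 56.7 CPM (log2 fold change 0.81, adjusted p = 0.000719). The exception, Thbs1, a matricellular protein that activates TGF-beta, was at 75.9, 58.6 and 66.8 CPM against 112, 108 and 87.1 CPM (-0.61). Without replicate 1 of the miR-148b hybrid Fmod was the only one still called higher, and Thbs1 was still called lower. Without replicate 3 of the miR-590 hybrid, or with library totals alone, 4 were higher. Timp3, an inhibitor of matrix proteases, was at 5901 ± 252 against 4533 ± 393 CPM (0.38), and Mmp11, a protease of remodelling stroma, at 112 ± 17.0 against 68.1 ± 15.9 CPM (0.72).

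Of 8 tested keratin and epidermal genes, 4 were higher and 0 lower, with a median of 0.52. They were Krt15, Krt16, Krt19 and Anxa8, which encodes an annexin. Krt15, a keratin of basal epidermis, was at 557, 623 and 496 CPM with miR-590 and at 224, 248 and 375 CPM with miR-148b (log2 fold change 0.99, SE 0.139, adjusted p = 9.42e-05). Krt16 gave 1.33, and Krt42, outside the list but the largest rise by the rule for named genes, was at 24.0, 22.045 and 19.9 CPM against 6.96, 4.98 and 11.3 CPM (1.51). The libraries did not overlap for these genes, which the rule for the largest rises required of Krt16 and Krt42. Without replicate 1 of the miR-148b hybrid or replicate 2 of the miR-590 hybrid, Krt15 and Krt16 were the 2 list members called. Of 6 epithelial markers, Epcam, Krt8, Krt18 and Cldn4 were at 0 in all 6 libraries, and the sum was 1.13 to 2.64 CPM with miR-590 and 2.67 to 3.68 CPM with miR-148b.

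Several signalling genes were among the largest rises. Plagl1, an imprinted zinc finger gene that restrains growth, was at 75.8, 83.7 and 63.3 CPM against 22.8, 24.4 and 43.6 CPM (log2 fold change 1.30, SE 0.203, adjusted p = 0.000303). Rapgef4, which encodes the cAMP sensor EPAC2, gave 1.39, Greb1, known as a hormone-responsive gene, 1.30, and Ntn4, a netrin of basement membranes, 1.15. Erbb3, a neuregulin receptor, gave 1.17 and lost its call without replicate 1 of the miR-148b hybrid. The guidance genes went both ways: Sema3c was at 109, 108 and 94.2 CPM against 52.9, 57.1 and 62.6 CPM (0.86), and Sema3a at 31.9, 38.1 and 40.9 CPM against 59.9, 53.6 and 51.8 CPM (-0.58). Neither overlapped between the groups, and the call of Sema3a was lost without replicate 1 of the miR-148b hybrid.

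Growth and stress lists held few calls, nearly all lower. Of 26 DNA replication genes, 5 were lower and 0 higher, with a median of -0.26. Gins2, of the replicative helicase, was at 27.0, 23.4 and 26.0 CPM against 39.9, 38.2 and 37.6 CPM (log2 fold change -0.60, adjusted p = 0.00288), and without replicate 1 of the miR-148b hybrid or replicate 3 of the miR-590 hybrid 1 of the 26 was called. The 24 mitosis genes gave 0 calls in edgeR, 10 at an unadjusted p under 0.05, 0 in limma-voom and 3 lower in DESeq2, with a median of -0.17. Library totals without scaling also gave 3 lower, and leaving out 1 library gave 0 or 1. Of 23 p53 targets and cell cycle inhibitors 3 were lower, led by Mdm2, the ubiquitin ligase that degrades p53, at 217 ± 12.2 against 333 ± 37.2 CPM (-0.62). Of 18 ATF4 targets 5 were lower, led by Ddit3, which encodes the stress factor CHOP, at 155 ± 14.004 against 226 ± 17.2 CPM (-0.54), and 1 was without replicate 1 of the miR-148b hybrid and 2 without its replicate 2 or without replicate 2 of the miR-590 hybrid. Of 16 NRF2 antioxidant genes 5 were lower, among them Srxn1, which restores peroxiredoxins, at -0.52, and without replicate 1 of the miR-148b hybrid 2 were. Nqo1, a quinone reductase of that list, was higher (0.28, adjusted p = 0.0376), a call lost in 9 settings.

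Metabolic and remaining lists held 1 or 2 calls on a side. Scd1 and Scd2, desaturases that make monounsaturated fatty acids, were at 137 ± 15.4 against 89.8 ± 10.0 CPM and at 598 ± 20.8 against 435 ± 30.8 CPM (log2 fold changes 0.61 and 0.46), the 2 called of 26 cholesterol and fatty acid genes. Of 24 glycolysis and hypoxia genes the glucose transporter gene Slc2a1 was higher (0.39) and hexokinase gene Hk2 lower (-0.45), and both calls were lost without replicate 1 of the miR-148b hybrid. The small heat shock gene Cryab was at 1113 ± 99.3 against 752 ± 88.3 CPM (0.57) and the chaperone gene Hsph1 gave -0.36 (15 tested, 1 call a side). The call of Hsph1 was lost in 4 settings.

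Of 22 ER chaperone genes, Pdia3, a disulfide isomerase of the MHC class I loading complex, was higher (0.39), as was Calr (0.29, a call lost in 14 settings). Fosl1, an AP-1 subunit, was at 16.7 ± 3.71 against 30.5 ± 3.52 CPM (-0.88), and Nr4a1, an orphan nuclear receptor, gave 0.48, the 2 called of 19 immediate early genes. The call of Nr4a1 was lost in 3 settings. The Wnt list of 18 had 1 call, Frzb, a secreted Wnt antagonist of cartilage, at 50.1 ± 8.39 against 29.9 ± 11.0 CPM (0.75), lost in 6 settings. Dhrs3, a retinal reductase, gave 0.51 among 8 retinoic acid genes and lost its call without replicate 1 of the miR-148b hybrid. Among proteases and inhibitors (19 tested, 2 calls a side), Adamts1 was lower (-0.44) and the scarce Mmp9 was at 0.263 ± 0.163 against 1.87 ± 1.31 CPM, a call lost in 4 settings. The mitochondrial transcripts mt-Nd1 and mt-Cytb were the 2 higher of 7 (0.28 and 0.34), and both calls were lost in 6 settings. In the Notch list of 11, the FGF list of 14, the imprinted list of 11 and the vessel list of 17, the calls were Hey1, Fgfr3, Plagl1 and the Sema3 pair given above.

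Of the 41 lists, 9 gave 0 calls in edgeR. Beside osteoblast and mitosis these were hedgehog and PTHrP (10 tested), TGF-beta (18), circadian clock (16), contractile smooth muscle (16), adipocyte (12), lysosome (22) and miRNA processing (15). At an unadjusted p under 0.05 these 7 held 5, 2, 2, 4, 2, 7 and 3 genes in that order. DESeq2 called 0, 0, 1, 1, 0, 0 and 1 of them, and limma-voom 1, 0, 0, 0, 0, 0 and 1. The hedgehog and PTHrP list reached 2 higher without replicate 3 of the miR-148b hybrid, without replicate 2 of the miR-590 hybrid or with no filter on low counts, and the other 6 reached at most 1 call a side in any alternative. Pth1r, the PTHrP receptor of growth plate cartilage, gave 0.66 with an adjusted p of 0.0535.

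**Figure D4:**
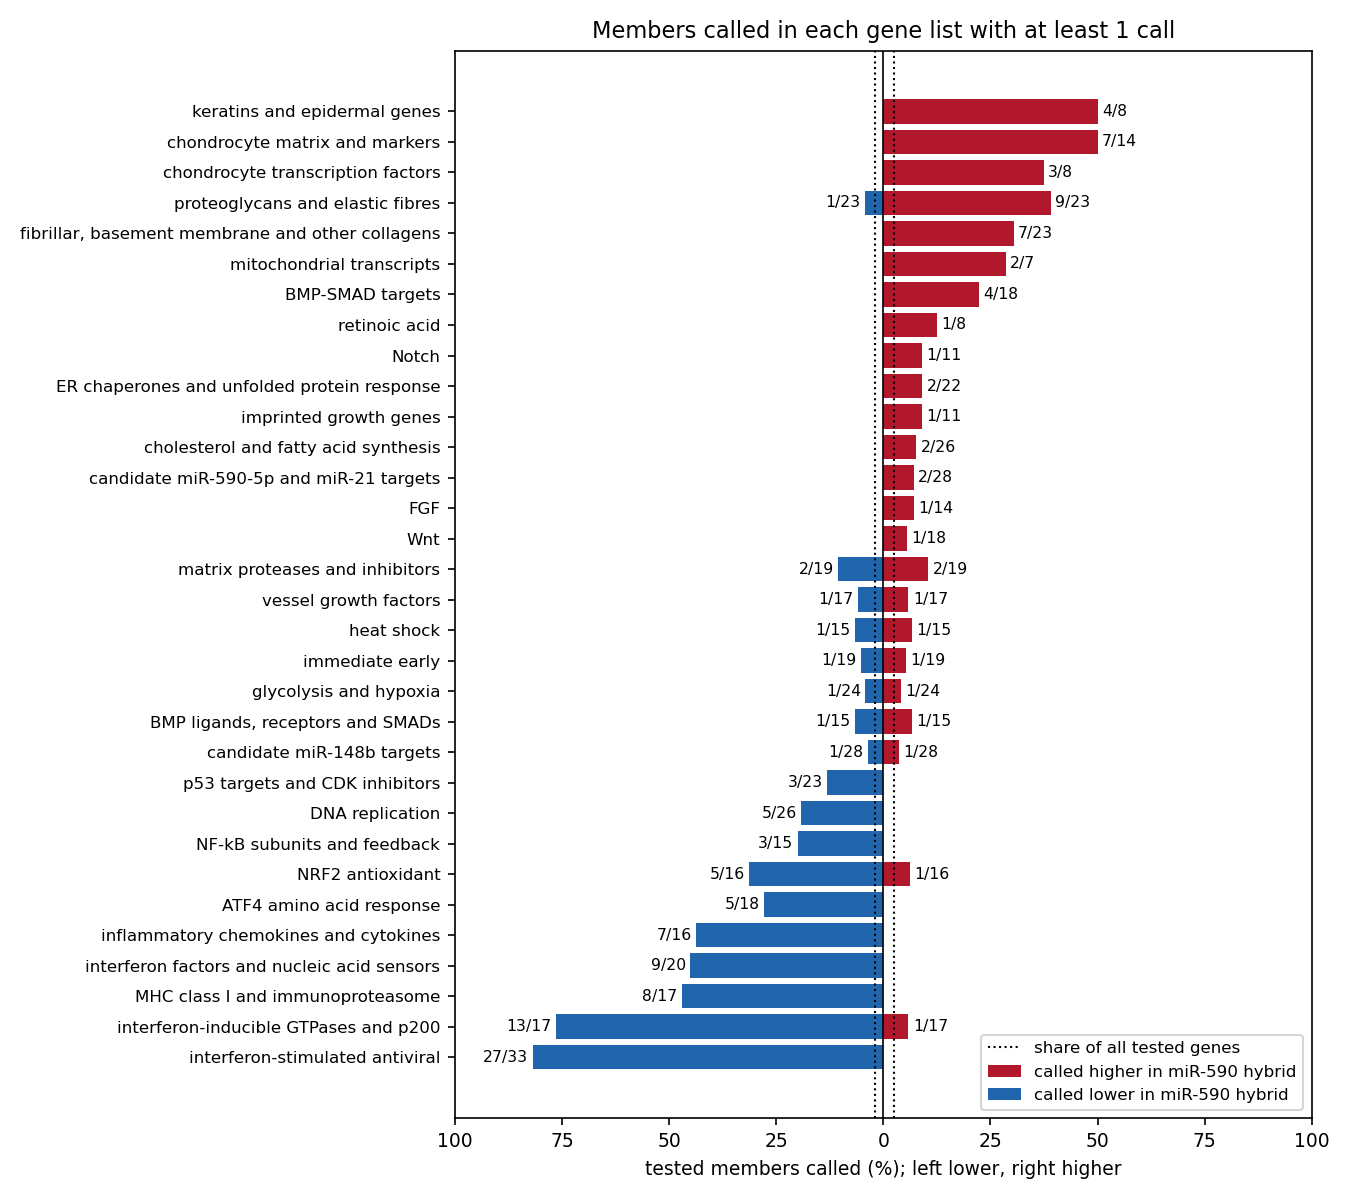
For each gene list with at least 1 call, the bars give the percent of tested members called lower (left) and higher (right) in the miR-590 hybrid, with counts beside them and dotted lines at the shares of all tested genes (1.97% and 2.46%). The antiviral list reaches 27 of 33 on the left, and the keratin and epidermal and the chondrocyte matrix lists reach 4 of 8 and 7 of 14 on the right.

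Direct targets of the miRNAs were looked for in 2 ways. Of 28 tested genes listed as candidate miR-148b targets, 1 was higher and 1 lower, with a median of -0.01. Nrp1, a semaphorin and VEGF co-receptor, was at 484 ± 17.0 against 392 ± 29.5 CPM (log2 fold change 0.30), a call lost in 8 settings, and the lower one was Csf1. Of 28 candidate targets of the seed shared by miR-590-5p and miR-21, 2 were higher and 0 lower, with a median of 0.06. These were Timp3 and Bmpr2, and Pdcd4, a translation inhibitor known as a miR-21 target, was at 42.0 against 32.9 CPM (0.36, adjusted p = 0.112).

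Seed sites were then counted in the 3′ UTRs of 11583 tested genes (median length 1220 bases). A 7-base site for miR-148b-3p, TGCACTG, was present in 1826 genes, of which 3.67% were higher and 1.64% lower with miR-590. In the 9757 genes without it the shares were 2.53% and 2.18%. An 8-base site, the same letters followed by A, was present in 505 genes, of which 31 (6.14%) were higher and 6 (1.19%) lower. The medians were 0.02 with a 7-base site, 0.05 with an 8-base site and 0.00 without a 7-base site.

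For the seed shared by miR-21 and miR-590-5p, the 7-base site ATAAGCT was present in 949 genes. Of these 3.58% were higher and 1.79% lower, beside 2.63% and 2.13% of the 10634 genes without it. With the 8-base site, 12 of 279 (4.30%) were higher and 4 (1.43%) lower. The median was -0.0012 with the 7-base site and 0.01 without it. A larger share of genes with a site than without one was thus called higher for either seed, and no test of these shares was made.

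**Figure D5:**
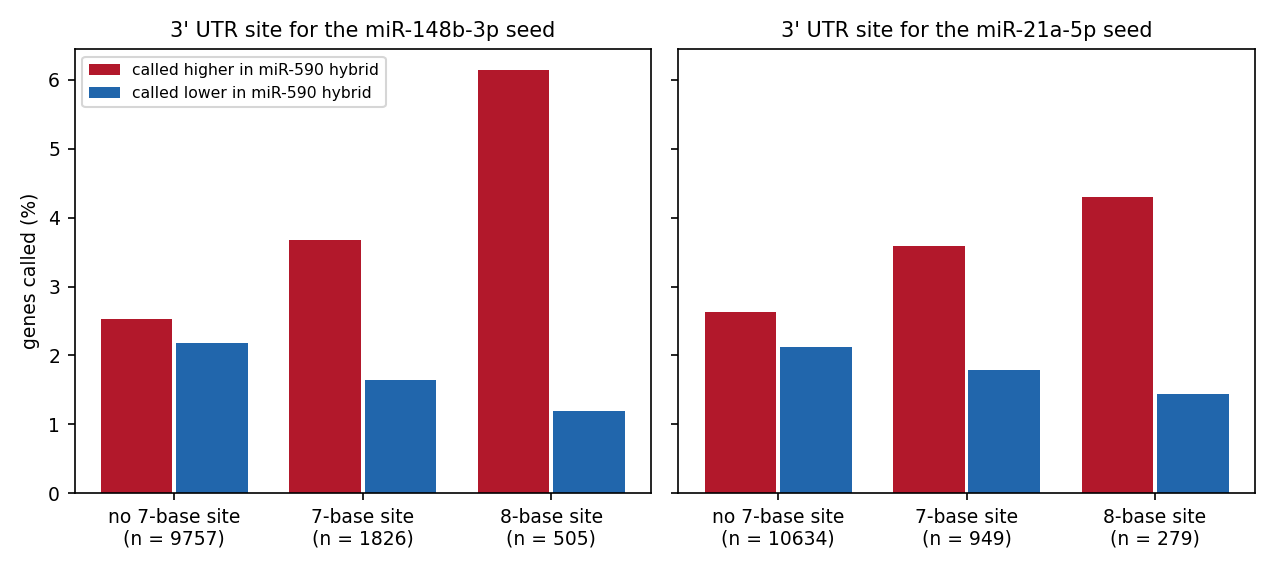
Percent of genes called higher (red) or lower (blue) in the miR-590 hybrid, by the site in the 3′ UTR for the seed of miR-148b-3p (left panel) or miR-21a-5p (right panel). Genes with an 8-base site are also counted among those with a 7-base site, and the largest share is the 6.14% of genes with an 8-base miR-148b-3p site that were higher.

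The 8-base sites of called genes among those named by the rule are shown so that their letters can be compared. Each is the 7-base site in capitals with the 14 bases before it and the base after it in the longest 3′ UTR of GENCODE M21. For miR-148b-3p, Col2a1, Erbb3, Greb1, Frzb and Slc2a1 were higher in the miR-590 hybrid, while Csf1 and Trp53inp1, a p53 target, were lower. For the miR-21 seed, Bmpr2 and Timp3 were higher and Rsad2 was lower. A match describes letters, and whether any of these genes responds to a miRNA was not tested.
Col2a1: gtcactccaggatcTGCACTGa
Erbb3: actccgtttgttggTGCACTGa
Greb1: aaccaaagagcacaTGCACTGa
Frzb: tttcttatgtgtgcTGCACTGa
Slc2a1: gttctagtctcctgTGCACTGa
Csf1: tctcctcggcttctTGCACTGa
Trp53inp1: acagtgttcttcaaTGCACTGa
Bmpr2: tggacaggagaaacATAAGCTa
Timp3: tttttgagctttcaATAAGCTa
Rsad2: attgatgttgtttcATAAGCTa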

How the data were processed

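RNA of C3H/10T1/2 cells was sequenced with QuantSeq 3' mRNA FWD from 100 ng of RNA with 16 PCR cycles, per the labels' protocols. The submitters' processing notes name FastQC 0.11.5, STAR 2.5.2a with the build GRCm38, HTSeq 0.6.0 and DESeq2 3.11. The deposited values are the authors' raw counts per gene, without normalisation, 1 file per library. Counting mode and strand setting were not stated there, so overlapping genes on opposite strands may share reads. Lines that name no gene (52.2% to 54.4% of records) were left out. Since reads stem mainly from 3' ends, levels are not divided by length and genes are not ranked against each other.

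The files list 47643 genes, of which 47224 have a symbol in GENCODE M21. All 12 libraries were fitted in edgeR 4.0.16 (R 4.3.3) with a mean per group, TMM scaling and filterByExpr. The quasi-likelihood F-test was adjusted by Benjamini-Hochberg over the 13229 genes tested (common biological coefficient of variation 0.117), and steps were tested on simulated data. CPM are scaled by TMM, except for the marker sums, errors are SD of 3 libraries, and intervals and limits of 0 do not cover duplicate reads from PCR. The members and the 41 gene lists were chosen with earlier results of these data known, so lists carry counts and medians and no test of their own. The rule names Bmp2, Mir148b, Copz1, Mir590, Eif4h, Nog and Smad7. It adds the 12 largest rises and 12 largest falls among called genes of at least 10 CPM in 1 group, without overlap and with an established symbol, and, within a list, at most the 4 called members of lowest p. Other list members are named for their role, and Papss2 and other genes outside the lists were chosen after their values were seen. Seed sites were meant to include both arms of miR-590. Only the seed of miR-21a-5p was searched, since RefSeq's table matched no miR-590 entry, while 5 mature miRNAs matched. The reference means were placed on a log2 scale with a pseudocount of 0.1. Alternatives were RLE scaling, no scaling, no filter, DESeq2 1.42.0, limma-voom (limma 3.58.1), only the 6 libraries compared, the replicate number as a block and leaving out each library. A result that concerns an item withheld for evaluation is not reported here.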

Additional observations from a re-analysis of the deposited data

How the results depend on the processing

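Among the named genes, 64 kept their call in all 19 alternatives, as did 52 of 83 other called genes checked. Beside 325 higher and 261 lower genes in all, the fit to only the 6 libraries compared gave 212 higher and 188 lower, the fit without a filter on low counts 417 and 350, and DESeq2 404 and 375. Leaving out 1 library at a time gave 241 to 656 genes in total, 120 to 353 higher and 121 to 303 lower. The lowest counts came without replicate 1 of the miR-148b hybrid and the highest without its replicate 3. With the replicate number as a block 460 genes were called, 455 of them among the 586. Same-numbered libraries of the 2 groups did not deviate together (correlations -0.009, -0.0195 and -0.0293), so the numbers were not treated as pairs. The median of genes with a 7-base miR-21 seed site was -0.0012, beside 0.0079 without it. For the 279 genes with an 8-base site it was 0.0034, beside 0.0073 without one. Among genes of at least 10 CPM it was 0.0063 with a 7-base site, beside 0.0067 without it. Uncalled genes near 0 changed sign: Bmp2 was 0.0041 in limma-voom and, over the fits that left out a library, ran from -0.34 to 0.37, the highest without replicate 2 of the miR-148b hybrid. Over the same fits Eif4h ran from -0.064 to 0.023, the highest without replicate 3 of the miR-148b hybrid, and Smad7 from -0.045 to 0.11, the lowest without replicate 2 of the miR-590 hybrid. The cause was not tested. Depth of 9236431 to 14002702 counts leaves genes such as Bmp2, Nog and Ifnb1, at a few CPM, with wide intervals.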

Other observations

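Called genes outside the lists, chosen after their values were seen, included more of cartilage metabolism. Papss2, which makes the sulfate donor for cartilage proteoglycans, was at 543 ± 61.0 CPM in the miR-590 hybrid against 267 ± 41.1 CPM in the miR-148b hybrid, a log2 fold change of 1.02 (SE 0.11, adjusted p = 4.04e-06 in edgeR's quasi-likelihood test), with no overlap between the libraries. Col27a1, a collagen of cartilage, was at 725 ± 75.4 against 378 ± 104 CPM (0.94). Slc35d1, a nucleotide sugar transporter needed for chondroitin sulfate, gave 0.56, Pcolce2, an enhancer of procollagen processing, 0.66, and C1qtnf3, a secreted protein of the C1q family found in cartilage, 0.85. The vitamin D receptor gene Vdr gave 0.48, and Spink5 and Pkp1, known from epidermis, gave 1.02 and 0.78. All 8 kept their call in all 19 alternatives.

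On the lower side, Cxcl11 and Cxcl9, which share a receptor with Cxcl10, were scarce at 1.07 ± 0.418 against 6.57 ± 1.41 CPM (log2 fold change -2.60) and 2.67 ± 0.650 against 8.62 ± 1.47 CPM (-1.70). Rnf213 and Trim30a, interferon-induced ubiquitin ligase genes, gave -0.84 and -0.87, and Ube2l6, the conjugating enzyme for Isg15, gave -0.82. Parp12, Ddx60 and Helz2, further interferon-stimulated genes, gave -0.62, -0.78 and -0.58. Gch1, the first enzyme of tetrahydrobiopterin synthesis, was at 18.4 ± 2.29 against 37.6 ± 4.42 CPM (-1.04). Ccnd1, which encodes the cell cycle regulator cyclin D1, was at 377 ± 39.2 against 556 ± 55.0 CPM (-0.56), and Gadd45g, a growth arrest gene, gave -0.54. These 11 genes also kept their call in all 19 alternatives. Hpgd, a prostaglandin-degrading enzyme gene, was at 1.12 ± 0.554 CPM with miR-590 and at 0 in all 3 miR-148b hybrid libraries, and its call was lost in 4 settings.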
